A study of Homo sapiens with 6 samples.

Results

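The aldehyde dehydrogenases, aldo-keto reductases and glutathione transferases are 3 enzyme families that act on reactive carbonyl compounds and electrophiles. Their members were taken by gene symbol from the protein-coding rows of the deposited count table: ALDH, AKR and GST symbols of the regular form plus MGST1 to MGST3, without ALDH1L1, ALDH1L2 and ALDH18A1. This gave 47 of 58735 genes, namely 15 aldehyde dehydrogenases, 12 aldo-keto reductases and 20 glutathione transferases. The data were RNA-seq read counts from cells labelled MG63, an established human osteosarcoma line, in 2 groups of 3 samples. The siFUBP1 group had been transfected with small interfering RNA (siRNA) against FUBP1, a single-stranded nucleic acid-binding protein known for activating MYC, and the siMock group with the negative control siRNA. RNA was extracted 48 h after transfection in both groups, so the comparison is one of a transient partial knockdown with a transfected control, in 1 cell line. The labels do not say that the samples of a group were separate cultures, and p-values then measure the spread between these samples only.

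Aldehyde dehydrogenases oxidise aldehydes to carboxylic acids with NAD or NADP, aldo-keto reductases reduce aldehydes and ketones to alcohols with NADPH, and glutathione transferases join glutathione to electrophiles. Together they handle products of lipid peroxidation, retinal, steroids, sugars and many drugs. Several of the genes are known targets of NRF2, a transcription factor that binds antioxidant response elements in promoters.

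FUBP1 was measured at 237, 255 and 274 CPM (read counts scaled to a common library size with edgeR's TMM factors) in the siMock samples and at 44.3, 43.4 and 53.0 CPM in the siFUBP1 samples. The groups did not overlap, and the level in siFUBP1 was 18.4% of that in siMock, a log2 fold change of -2.44 ± 0.09 (SE). An exact two-sided permutation test over the samples gave p = 0.1, the smallest value that 3 against 3 allows. Total counts were between 16309900 and 17484313 per sample. A count of 0 allows up to between 0.172 and 0.192 CPM, depending on the sample, for counting error only. The labelled cell type was checked against marker genes. Of 8 osteoblast-lineage markers, 6 had under 100 reads over all samples together: COL1A2 had 0, ALPL 2, SP7 7, SPARC 12, BGLAP 40 and SPP1 53. The other 2 went in opposite directions: COL1A1 was at 113 ± 4.68 CPM in siMock and 45.5 ± 0.15 CPM in siFUBP1, and RUNX2 at 0.448 ± 0.0564 and 4.05 ± 1.70 CPM. SPP1 and BGLAP, though low, were also higher in siFUBP1 without overlap. The summed level of this list, 109 to 119 CPM in siMock and 49.7 to 52.5 CPM in siFUBP1, was almost all COL1A1. Of 5 mesenchymal markers, THY1 had 3 reads in all. In siMock and siFUBP1, VIM was higher, at 149 ± 9.05 and 194 ± 17.0 CPM, and NT5E too, at 6.82 ± 0.551 and 14.8 ± 3.18 CPM. FN1 was lower, at 113 ± 11.2 and 65.5 ± 1.11 CPM, and ENG was at 82.3 ± 6.73 and 85.7 ± 5.39 CPM. These changes in both directions lie within list sums of 348 to 358 CPM in siMock and 351 to 372 CPM in siFUBP1. The 5 epithelial markers summed to 2528 to 2901 CPM in siMock and 1367 to 1497 CPM in siFUBP1, nearly all of it from KRT8 and KRT18. The defining markers of an osteoblast-lineage line were thus largely absent, which puts the labelled identity in doubt. For 7 haematopoietic and endothelial markers the range was 6.72 to 8.89 CPM in siMock and 4.32 to 5.61 CPM in siFUBP1. The part of these marker differences in the results was not tested, and in bulk samples fewer cells of a kind and less RNA per cell cannot be told apart.

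Sequences bearing on these genes are shown first. The methods name 3 siRNAs against FUBP1 and do not say which was sequenced. Their guide strands, from the study's oligonucleotide list, are printed 5′ to 3′ with the seed, bases 2 to 8, in capitals, because a seed match in another transcript's 3′ UTR can lower that transcript.
RNAi#1: uAAACUGAaugcgaacacc
RNAi#2: uAAGAGGUuugucagcacc
RNAi#3: uUUCUUCUaugaguugccg
Matches to the 7-base seed were sought in the 3′ UTR of 1 transcript per gene. RNAi#1 had a match in 4 tested members, of which 1 rose and 0 fell, and in 24.2% of all tested genes with a 3′ UTR. RNAi#2 had a match in 2 tested members, GSTO2 and GSTZ1, both of which rose, and in 15.9% of tested genes. RNAi#3 had a match in 9 tested members, of which 1 rose and 5 fell, and in 28.3% of tested genes. The members with an RNAi#3 match that fell were AKR1C2, ALDH3A2, ALDH5A1, GSTM2 and GSTM3. Of all 34 tested members, with or without a match, 5 rose and 21 fell. Over all tested genes 30.1% rose and 30.1% fell. Whether a match lowered any member was not tested. GSTO2 held a match to each of the 3 seeds and rose.

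RefSeq promoters of build GRCh38.p14, from 250 bases before to 50 bases after a transcription start, matched 40 of the 47 members. The core of the antioxidant response element (letters TGACNNNGC, either strand) was in 8 of the 51 promoters of these members, or 15.7%, and in 13.3% of all 35116 promoters. The genes with it were AKR7A2, GSTA4, GSTM1, GSTM5, GSTO1, GSTP1 and MGST1. The E-box CACGTG, bound by MYC and related factors, was in 5 of the 51, or 9.8%, and in 7.26% of all promoters, and the genes with it were AKR1A1, ALDH3A2, ALDH3B1, GSTO2 and GSTT4. No member held both motifs. Promoters of 5 members are printed 5′ to 3′ on the gene's own strand, chosen to set members that fell (AKR7A2, ALDH3A2, AKR1C4) beside members that rose (GSTO1, GSTO2). Capitals mark antioxidant response element cores in AKR7A2 and GSTO1 and the E-box in ALDH3A2 and GSTO2, and AKR1C4 holds neither.
AKR7A2, chr1:19312095-19312394, minus strand: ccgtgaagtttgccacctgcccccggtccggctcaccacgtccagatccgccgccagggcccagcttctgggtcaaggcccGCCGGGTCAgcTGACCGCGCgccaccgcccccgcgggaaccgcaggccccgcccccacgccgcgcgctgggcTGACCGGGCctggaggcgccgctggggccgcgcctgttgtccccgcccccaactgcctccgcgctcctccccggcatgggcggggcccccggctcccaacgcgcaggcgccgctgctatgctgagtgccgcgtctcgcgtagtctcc
ALDH3A2, chr17:19648501-19648800, plus strand: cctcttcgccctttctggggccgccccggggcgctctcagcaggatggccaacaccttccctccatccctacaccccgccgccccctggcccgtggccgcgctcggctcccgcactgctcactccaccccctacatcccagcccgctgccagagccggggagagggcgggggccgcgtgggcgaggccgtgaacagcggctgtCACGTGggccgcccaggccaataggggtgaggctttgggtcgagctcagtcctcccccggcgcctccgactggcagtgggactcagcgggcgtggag
AKR1C4, chr10:5196587-5196886, plus strand: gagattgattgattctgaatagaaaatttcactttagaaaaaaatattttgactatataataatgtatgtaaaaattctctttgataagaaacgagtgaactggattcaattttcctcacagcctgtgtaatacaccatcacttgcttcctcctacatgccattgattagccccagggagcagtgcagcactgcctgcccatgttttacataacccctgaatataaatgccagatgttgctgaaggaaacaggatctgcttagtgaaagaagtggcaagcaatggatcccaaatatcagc
GSTO1, chr10:104254642-104254941, plus strand: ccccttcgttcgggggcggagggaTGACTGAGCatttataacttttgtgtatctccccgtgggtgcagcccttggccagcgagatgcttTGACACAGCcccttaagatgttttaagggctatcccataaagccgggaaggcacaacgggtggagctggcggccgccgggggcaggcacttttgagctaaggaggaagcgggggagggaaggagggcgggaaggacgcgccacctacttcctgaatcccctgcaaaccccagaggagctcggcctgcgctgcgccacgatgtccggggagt
GSTO2, chr10:104268934-104269233, plus strand: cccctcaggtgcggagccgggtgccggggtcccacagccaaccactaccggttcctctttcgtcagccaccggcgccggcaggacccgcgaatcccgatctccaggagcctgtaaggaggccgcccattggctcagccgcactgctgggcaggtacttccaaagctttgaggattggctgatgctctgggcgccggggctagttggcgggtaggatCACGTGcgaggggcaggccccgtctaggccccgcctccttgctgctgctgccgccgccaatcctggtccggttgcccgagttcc
The antioxidant response element core occurred 3 times in the AKR7A2 promoter, a gene that fell, and 2 times in that of GSTO1, a gene that rose. The E-box was likewise found in a promoter of ALDH3A2, which fell, and in a promoter of GSTO2, which rose. A gene was listed if any of its promoters held the motif, and ALDH3A2, GSTO2, ALDH3B1 and MGST1 also have promoters without it. A match is a description of the letters and not of a bound site.

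Of the 47 genes, 34 had enough reads to be tested, and 26 of these passed at an adjusted p below 0.05 (edgeR quasi-likelihood F test, Benjamini-Hochberg adjustment over 16116 genes). There were 5 that rose in siFUBP1 and 21 that fell, while 60.2% of all tested genes passed, 30.1% higher and 30.1% lower. The median log2 fold change of the 34 tested members was -0.35, beside 0.00197 over all tested genes. All members are protein-coding, and of the 12662 tested protein-coding genes 3942 rose and 4331 fell, with a median of -0.0219. A further threshold of an absolute log2 fold change above 1 was met by 1 member that rose (ALDH3A1) and 5 that fell (AKR1C4, GSTM2, AKR7A3, ALDH16A1 and ALDH3A2). Over all genes 8.16% were past this threshold upwards and 9.13% downwards, and among the 12662 protein-coding genes 756 were past it upwards and 1172 downwards. The 3 siFUBP1 samples lay wholly above the siMock samples for 5 members and wholly below for 21, beside 32.2% and 31.7% of all tested genes (63.9% in either direction). Each member that rose had non-overlapping groups. Among those that fell, AKR1C3 had overlapping groups, and ALDH9A1 had non-overlapping groups without passing the test.

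**Figure D1:**
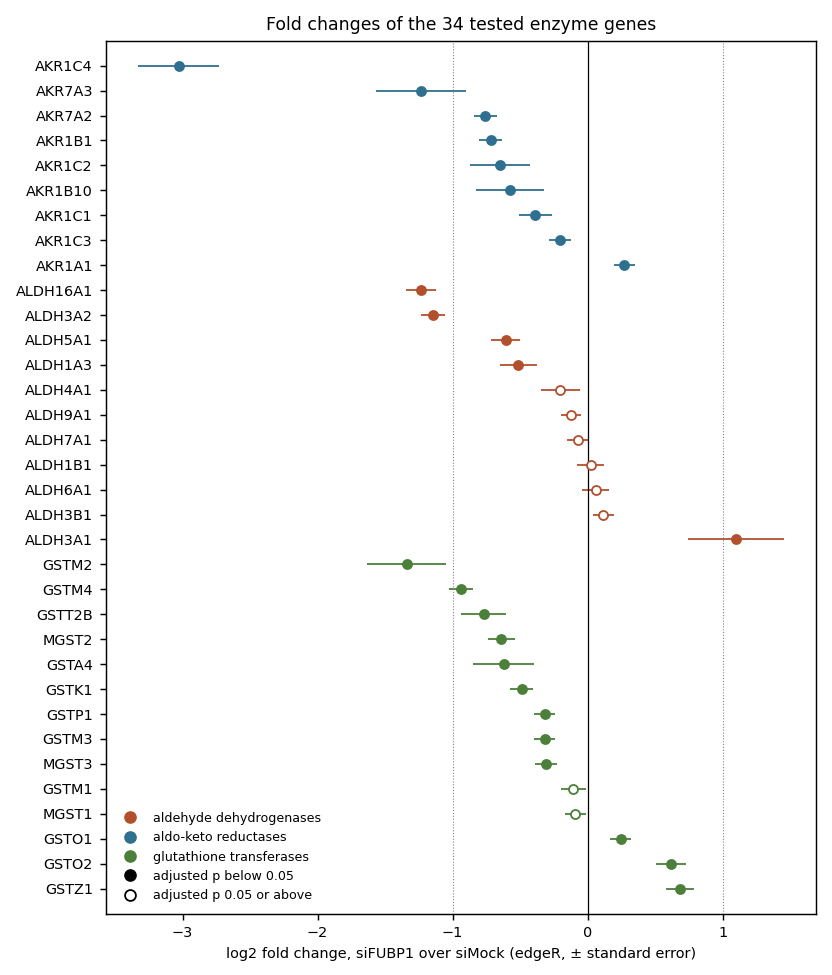
Log2 fold change (siFUBP1 over siMock, x axis) with its standard error for each of the 34 tested genes (y axis), by family and coloured by it, with filled points where the edgeR adjusted p was below 0.05 and dotted lines at a log2 fold change of -1 and 1. All aldo-keto reductases but AKR1A1 lie left of 0, and 6 of the 8 unfilled points belong to aldehyde dehydrogenases.

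The aldo-keto reductases fell the most uniformly by count: of 9 tested, 8 fell and 1 rose, with a median log2 fold change of -0.65. Of those that fell, AKR1B10, AKR1C1, AKR1C2 and AKR1C3 lost their call under some other settings. AKR1C1 and AKR1C2 also share much of their sequence. The aldehyde dehydrogenases were divided, with 4 of 11 that fell, 1 that rose, 6 that did not pass and a median of -0.12. Of 14 tested glutathione transferases 9 fell, 3 rose and 2 did not pass, and the median was -0.32. Differences between the families were not tested. Levels were then summed over each family per kilobase of exonic length, to lower the weight of long genes. This length is the union of all annotated exons of a gene and can exceed the length of a transcript. Genes with many annotated exons therefore weigh less in the sums. The aldo-keto reductases came to 315 ± 13.0 CPM per kilobase (SD, n = 3) in siMock and 214 ± 7.92 in siFUBP1, or 68.0%. The glutathione transferases came to 638 ± 20.3 and 536 ± 28.3 CPM per kilobase, or 84.1%, and the aldehyde dehydrogenases to 112 ± 3.06 and 97.2 ± 1.20, or 87.1%. In each family the 3 siFUBP1 sums lay below the 3 siMock sums.

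**Figure D2:**
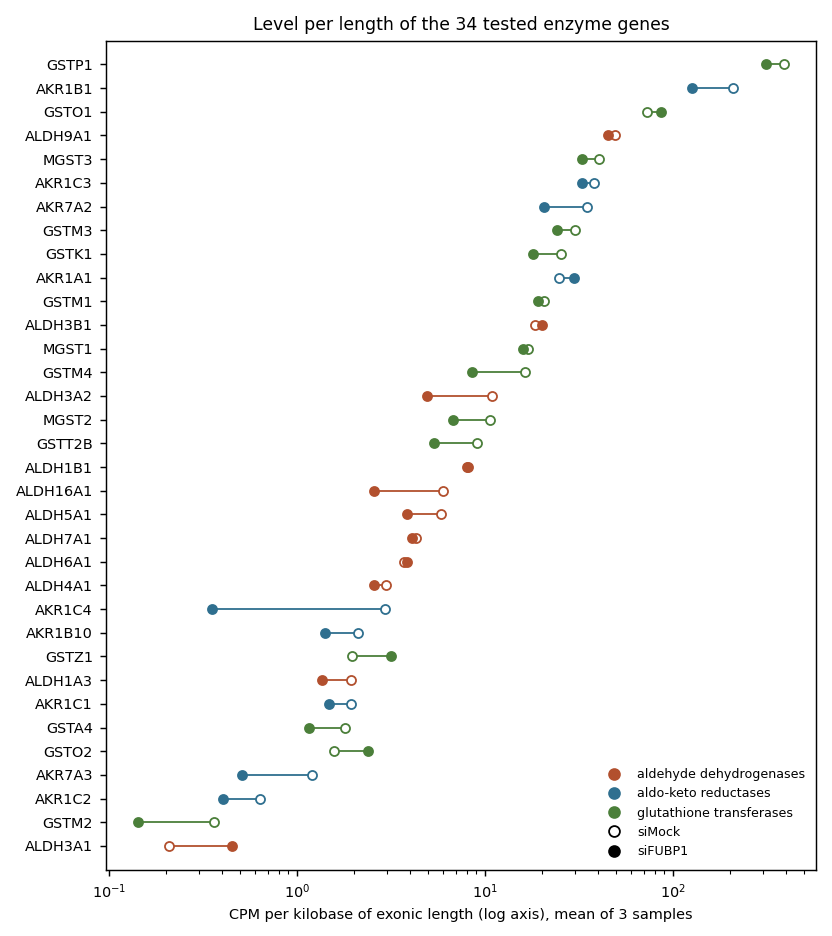
Mean level of the 34 tested genes in CPM per kilobase of exonic length (x axis, log scale, n = 3) in siMock (open points) and siFUBP1 (filled points), ordered by the siMock level and coloured by family. GSTP1 and AKR1B1 stand at the top in both groups, and the line of AKR1C4 is the longest.

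By this measure the level of each family rested on few genes. The shares depend on the union lengths, which were 1911 bases for GSTP1 and 8401 for MGST3. Those of ALDH9A1 and ALDH7A1 were 3308 and 17970 bases. Shares by transcript length were not computed. GSTP1, the pi-class transferase, made up 61.1% ± 1.30 of the summed glutathione transferase level in siMock and 58.3% ± 0.843 in siFUBP1. Aldose reductase AKR1B1, which reduces glucose to sorbitol, made up 66.2% ± 1.09 of the aldo-keto reductase level in siMock and 59.1% ± 2.22 in siFUBP1. ALDH9A1, an enzyme of carnitine synthesis, held 44.1% ± 0.964 and 46.6% ± 0.708 of the aldehyde dehydrogenase level. The largest gains in share were those of AKR1A1, from 7.84% to 13.9% of its family, GSTO1, from 11.4% to 16.0%, and ALDH3B1, from 16.5% to 20.6%. A share moves with the rest of the family, and ALDH3B1 itself did not pass the test.

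Within the aldo-keto reductases, the hydroxysteroid dehydrogenases AKR1C1 to AKR1C4, which interconvert active and inactive steroid hormones and also reduce prostaglandins, lie in 1 cluster on chromosome 10, and all 4 fell in the main comparison. AKR1C4 kept its call in all 16 alternatives, but AKR1C3 lost it in 9 of 16 (edgeR adjusted p up to 0.234), AKR1C1 in 3 of 17 and AKR1C2 in 2 of 17. AKR1C4 (ENSG00000198610, chr10:5195462-5218949, plus strand, GRCh38), best known from the liver, had 69, 89 and 114 reads in the siMock samples and 10, 8 and 17 in the siFUBP1 samples. These are 5.59 ± 1.57 CPM (SD over the 3 samples) and 0.676 ± 0.266 CPM. The highest siFUBP1 sample was far below the lowest siMock sample, and the log2 fold change was -3.03 ± 0.30 (SE, adjusted p = 2.57e-09), the largest of any member. AKR1C3, which also acts as prostaglandin F synthase, was the most abundant of the cluster, at 160, 178 and 179 CPM in siMock and 153, 134 and 161 CPM in siFUBP1. The 2 groups of AKR1C3 overlapped, and its log2 fold change of -0.21 ± 0.08 passed at an adjusted p of 0.0313.

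AKR1C1 and AKR1C2 may be hard to separate by reads. This was judged in windows of a set length of 50 bases, and the read length of these data was not used. Their coding sequences are 98% identical, and only 47.8% of the 50-base windows of the AKR1C2 transcript and 71.3% of those of AKR1C1 occur in no other gene. AKR1C1 was at 17.0 ± 2.39 CPM in siMock and 13.0 ± 0.495 CPM in siFUBP1 (log2 fold change -0.39 ± 0.12, adjusted p = 0.00914). AKR1C2 was at 4.10 ± 0.683 and 2.61 ± 0.131 CPM (-0.65 ± 0.22, adjusted p = 0.0139). With the reads of both genes summed, which was tried after the data were seen, the log2 fold change was -0.43 ± 0.11 (edgeR adjusted p = 0.00197).

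The aldose and aldehyde reductases went in both directions. AKR1B1 (ENSG00000085662, chr7:134442350-134459284, minus strand) was the member with the highest mean read level in siMock, at 746, 813 and 730 CPM in siMock and 452, 502 and 437 CPM in siFUBP1. No siFUBP1 sample came near a siMock sample, and the log2 fold change was -0.72 ± 0.08 (adjusted p = 2.9e-08). AKR1B10, a retinal and aliphatic aldehyde reductase next to it, was at 3.67 ± 0.405 and 2.46 ± 0.824 CPM. Its log2 fold change of -0.58 ± 0.25 passed narrowly (adjusted p = 0.0499). AKR1A1, aldehyde reductase, with a role in glucuronate and ascorbate chemistry, was the only tested aldo-keto reductase that rose. It was measured at 80.3, 75.6 and 74.9 CPM in siMock and 93.2, 96.7 and 89.0 CPM in siFUBP1, a log2 fold change of 0.27 ± 0.08 (adjusted p = 0.0037).

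Both AKR7 genes, neighbours 14714 bases apart on chromosome 1, fell. AKR7A2 (ENSG00000053371, chr1:19303965-19312146, minus strand), which reduces succinic semialdehyde and aflatoxin dialdehyde, was at 66.5, 61.8 and 57.7 CPM in siMock. In siFUBP1 it was at 38.2, 37.0 and 34.8 CPM, below every siMock sample (log2 fold change -0.76 ± 0.09, adjusted p = 4.01e-08). AKR7A3 is a close relative, 92.1% identical to AKR7A2 in coding sequence. Of its windows 76.7% were unique, and 23.1% were shared with another annotated gene, AKR7L. It had 38, 37 and 26 reads in siMock and 12, 15 and 18 in siFUBP1, and its log2 fold change was -1.24 ± 0.33 (adjusted p = 0.00236).

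**Figure D3:**
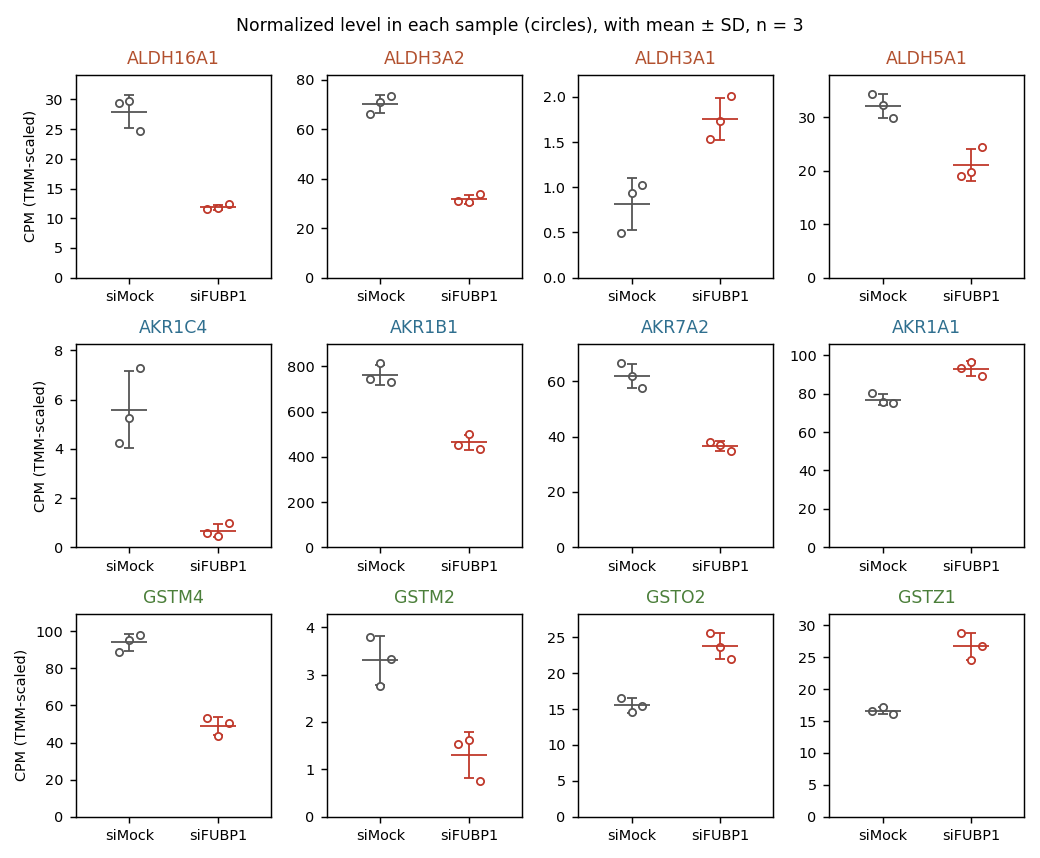
CPM (y axis, from 0) of 12 members in each siMock and siFUBP1 sample (circles), with the mean (long bar) and SD (error bar, n = 3), titles coloured by family. Each gene has 3 siFUBP1 samples wholly on one side of the siMock samples: above for ALDH3A1, AKR1A1, GSTO2 and GSTZ1 and below for the other genes shown.

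Among the aldehyde dehydrogenases, the pair ALDH3A2 and ALDH3A1, 60385 bases apart on chromosome 17, moved in opposite directions. ALDH3A2 (ENSG00000072210, chr17:19648136-19677598, plus strand), the fatty aldehyde dehydrogenase whose loss causes Sjogren-Larsson syndrome, had 66.3, 71.0 and 73.4 CPM in siMock and 30.9, 30.6 and 33.8 CPM in siFUBP1. The groups lay far apart, the level in siFUBP1 was 45.2% of that in siMock, and the log2 fold change was -1.14 ± 0.09 (adjusted p = 1.89e-11). ALDH3A1 (ENSG00000108602, chr17:19737984-19748943, minus strand), which oxidises aromatic and medium-chain aldehydes and is abundant in the cornea, had few reads. It was counted at 8, 16 and 16 reads in siMock and 26, 30 and 35 reads in siFUBP1. The groups did not overlap, and the log2 fold change was 1.10 ± 0.36 (adjusted p = 0.01). Without the siMock sample of 8 reads it was 0.83, and it no longer passed (edgeR adjusted p = 0.067). ALDH3B1, a membrane-bound relative for lipid aldehydes, was at 122 ± 4.80 CPM in siMock and 132 ± 7.84 CPM in siFUBP1 and did not pass (0.12 ± 0.08, adjusted p = 0.194). It passed at 0.39 with trends with base composition and gene length removed (edgeR adjusted p = 0.000102), and also passed on total counts without a scaling factor.

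ALDH16A1 (ENSG00000161618, chr19:49453169-49471048, plus strand), a member that lacks the usual catalytic cysteine, was at 29.4, 29.7 and 24.7 CPM in siMock and 11.5, 11.8 and 12.3 CPM in siFUBP1. The log2 fold change was -1.24 ± 0.11 (adjusted p = 4.57e-10), and 10.5% of its exonic bases also lie in other annotated genes. ALDH5A1, succinic semialdehyde dehydrogenase of GABA breakdown, had 34.3, 32.4 and 29.9 CPM in siMock and 19.1, 19.8 and 24.5 CPM in siFUBP1 (-0.61 ± 0.11, adjusted p = 2.11e-05). The 1 tested gene of retinoic acid synthesis, ALDH1A3, was at 11.2 ± 0.471 and 7.87 ± 0.354 CPM (-0.51 ± 0.14, adjusted p = 0.00221). Of its transcript windows 63.5% were unique, since an annotated gene, AC015712.2, overlaps it.

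Of the 5 enzymes of amino acid, GABA and carnitine metabolism, ALDH5A1 fell and the other 4 did not pass. ALDH9A1 was at 163 ± 6.27 CPM in siMock and 150 ± 4.11 CPM in siFUBP1 (-0.12 ± 0.07, adjusted p = 0.167), but passed at -0.24 with those trends removed (edgeR adjusted p = 0.00669). ALDH7A1, of lysine breakdown, had a log2 fold change of -0.07 ± 0.08 (adjusted p = 0.471), ALDH6A1, of valine and thymine breakdown, 0.06 ± 0.10 (adjusted p = 0.626), and ALDH1B1, a mitochondrial acetaldehyde enzyme, 0.02 ± 0.10 (adjusted p = 0.864). None of these passed, and none is thereby shown to be equal between the groups. ALDH4A1, of proline breakdown, was at -0.20 ± 0.14 (adjusted p = 0.235), with 31.6% of its windows unique because the annotated gene AL080251.1 shares the rest.

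The glutathione transferases of the mu class lie in a cluster on chromosome 1, in overlapping gene models. GSTM4 (ENSG00000168765, chr1:109656081-109674836, plus strand) was at 88.8, 95.4 and 97.7 CPM in siMock and 53.2, 43.7 and 50.3 CPM in siFUBP1. Its groups lay far apart, with a log2 fold change of -0.94 ± 0.09 (adjusted p = 6.61e-10). GSTM2 had 62, 47 and 52 reads in siMock and 26, 28 and 13 in siFUBP1 (-1.34 ± 0.29, adjusted p = 0.000303). GSTM3 was at 143 ± 7.84 and 114 ± 8.39 CPM (-0.32 ± 0.08, adjusted p = 0.00111). GSTM1, a gene often deleted in people, was measured at 51.8 ± 1.67 and 48.1 ± 5.12 CPM and did not pass (-0.11 ± 0.09, adjusted p = 0.326).

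The split of reads among the mu genes is uncertain. Unique windows made up 51.3% of the GSTM2 transcript, 60.4% of GSTM1 and 81.4% of GSTM4, and 38.3% of GSTM1's exonic bases also lie in another gene. With GSTM1, GSTM2 and GSTM4 summed, tried after the data were seen, the log2 fold change was -0.60 ± 0.08 (edgeR adjusted p = 5.18e-07).

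**Figure D4:**
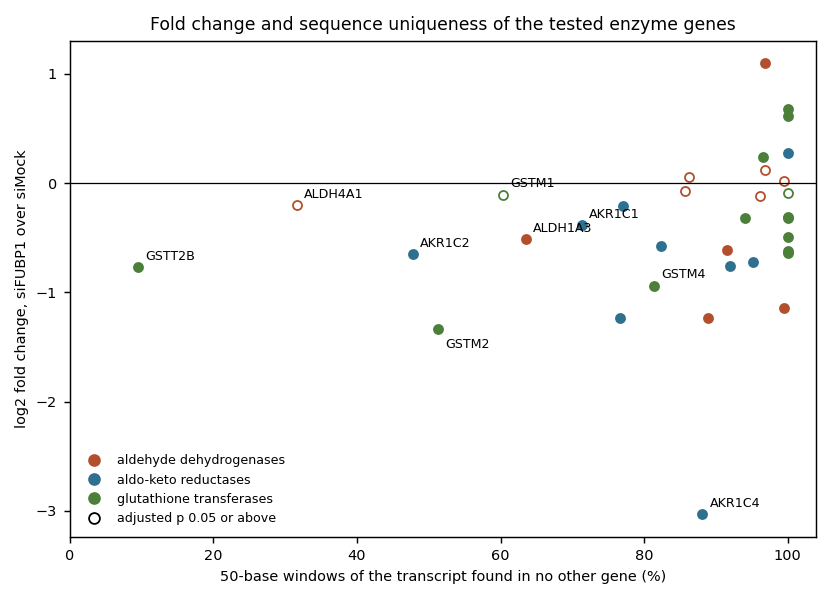
Log2 fold change of the 34 tested genes (y axis) against the percentage of 50-base windows of the transcript that occur in no other annotated gene (x axis), with open points where the edgeR adjusted p was 0.05 or above and some genes of low uniqueness, and AKR1C4, named. All 5 genes that rose lie at 90% or above, with 10 that fell.

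Of the 19 tested members with at least 90% unique windows, 5 rose, 10 fell and 4 did not pass. Of the 15 below this mark 0 rose, 11 fell and 4 did not pass. The lowest was GSTT2B, at 9.52%, since 90.5% of its windows are also in GSTT2. GSTT2B was at 11.5, 8.53 and 9.99 CPM in siMock and 6.87, 4.79 and 5.96 CPM in siFUBP1 (-0.77 ± 0.17, adjusted p = 0.000264), values that cannot be separated from those of GSTT2 in most windows of this length.

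GSTP1 (ENSG00000084207, chr11:67583595-67586656, plus strand) was the most abundant member per kilobase of the exonic length used here. It was at 789, 731 and 717 CPM in siMock and 620, 573 and 600 CPM in siFUBP1, with no overlap (-0.32 ± 0.08, adjusted p = 0.00107). Once trends with base composition and gene length had been removed, it was at -0.15 on the log2 scale and did not pass (edgeR adjusted p = 0.109). GSTA4, the alpha-class enzyme for 4-hydroxynonenal, a product of lipid peroxidation, was at 3.90 ± 0.145 and 2.53 ± 0.462 CPM (-0.62 ± 0.23, adjusted p = 0.0195). GSTK1, of mitochondria and peroxisomes, was at 107 ± 7.42 and 76.5 ± 5.66 CPM (-0.49 ± 0.08, adjusted p = 1.15e-05).

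The omega and zeta classes were the transferases that rose. GSTO1 and GSTO2, which lie 1413 bases apart on the same strand of chromosome 10 and reduce dehydroascorbate and arsenic compounds, both rose. GSTO2 (ENSG00000065621, chr10:104268873-104304945) was at 16.6, 14.5 and 15.4 CPM in siMock and 25.6, 23.7 and 22.0 CPM in siFUBP1 (0.62 ± 0.11, adjusted p = 2.42e-05). GSTO1, the more abundant, was at 122, 124 and 122 CPM and then 156, 139 and 142 CPM (0.24 ± 0.08, adjusted p = 0.00728). With the same trends removed GSTO1 was at 0.06 and did not pass (edgeR adjusted p = 0.499). GSTZ1 (ENSG00000100577, chr14:77320884-77331597, plus strand), maleylacetoacetate isomerase of tyrosine breakdown, was at 16.5, 17.2 and 16.1 CPM in siMock. All 3 siFUBP1 samples were higher, at 28.8, 24.6 and 26.7 CPM (0.68 ± 0.10, adjusted p = 3.33e-06).

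Of the microsomal transferases, which share no fold with the cytosolic ones and belong to the MAPEG family of membrane proteins, 2 of 3 fell. MGST2, which can also make leukotriene C4, was at 32.6, 33.0 and 35.3 CPM in siMock and 22.2, 19.1 and 23.5 CPM in siFUBP1 (-0.64 ± 0.10, adjusted p = 4.75e-06). MGST3 was at 341 ± 21.1 and 276 ± 28.8 CPM (-0.31 ± 0.08, adjusted p = 0.00256). MGST1 was at 126 ± 9.27 and 119 ± 6.88 CPM and did not pass (-0.09 ± 0.08, adjusted p = 0.335), but passed at -0.19 with trends with base composition and length removed (edgeR adjusted p = 0.0443). The other 3 MAPEG genes were tested, and 2 fell. PTGES, prostaglandin E synthase and the gene the study follows, was at 512 ± 39.5 and 79.5 ± 5.87 CPM (-2.69 ± 0.09, adjusted p = 2.74e-18), and LTC4S, leukotriene C4 synthase, at 3.74 ± 0.588 and 1.35 ± 0.206 CPM (-1.46 ± 0.26, adjusted p = 2.72e-05). ALOX5AP, which presents arachidonic acid to 5-lipoxygenase, did not pass (0.78, adjusted p = 0.057). Its siFUBP1 samples lay wholly above its siMock samples, and it passed as higher under some other settings.

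The 13 members that were not tested had few or no reads. GSTA1, GSTA2, GSTA3, GSTA5, GSTT4 and AKR1E2 had 0 reads in each of the 6 samples. ALDH1A1, the retinal dehydrogenase often used as a stem cell marker, had 2 reads in 1 siMock sample and 0 in the other samples. AKR1B15 had 9, 11 and 14 reads in siMock and 3, 0 and 2 in siFUBP1, and ALDH1A2 had 3, 6 and 3 and then 14, 12 and 3. AKR1D1, ALDH3B2, ALDH8A1 and GSTM5 had 4 or fewer reads in any sample. Without the filter on low counts AKR1B15, an aldo-keto reductase next to AKR1B10, was at -2.74 ± 0.75 on the log2 scale (edgeR adjusted p = 0.00124), from 3, 0 and 2 siFUBP1 reads and with a coding sequence 93.5% identical to that of AKR1B10. ALDH1A2 was at 1.19 ± 0.66 there and did not pass (edgeR adjusted p = 0.176), and it passed only with siFUBP1 replicate 3 left out (1.61, edgeR adjusted p = 0.0253). The other 5 members with reads did not pass without the filter.

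Other genes of the same pathways were read from lists of symbols. Their counts are read beside the 30.1% of all tested genes that rose and the 30.1% that fell, and nothing particular to a list follows from shares near these. In glutathione synthesis and turnover 6 of 15 tested genes rose and 5 fell. Those that rose included CHAC1, a glutathione-degrading enzyme, at 6.12 ± 1.72 and 53.6 ± 7.40 CPM (3.13 ± 0.15, adjusted p = 4.45e-13), and SLC7A11, the cystine importer (1.16 ± 0.09, adjusted p = 3.23e-11). The 2 subunits of glutamate-cysteine ligase, GCLC (0.89 ± 0.08, adjusted p = 3.41e-10) and GCLM (0.28 ± 0.08, adjusted p = 0.00514), also rose, but GCLM was at 0.09 and did not pass with trends with base composition and length removed (edgeR adjusted p = 0.363). GGT5 (-2.40 ± 0.44, adjusted p = 3.85e-05), DPEP1 (-2.04 ± 0.50, adjusted p = 0.00107) and OPLAH (-1.89 ± 0.12, adjusted p = 1.57e-12), which act in glutathione turnover and the gamma-glutamyl cycle, fell. GGT5 had only 32, 34 and 21 reads in siMock and 4, 10 and 3 in siFUBP1. DPEP1 had 17, 18 and 13 reads in siMock and 2, 4 and 6 in siFUBP1. OPLAH was at 64.2 ± 10.2 CPM in siMock and 17.4 ± 2.27 CPM in siFUBP1.

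Among NRF2 with its regulators and targets, 6 of 20 rose and 11 fell, with a median log2 fold change of -0.21. NFE2L2, which encodes NRF2, rose from 116 ± 6.87 to 163 ± 11.9 CPM (0.49 ± 0.08, adjusted p = 6.93e-06), and KEAP1, its inhibitor, fell (-0.28 ± 0.10, adjusted p = 0.021). The targets PRDX1 (-2.25 ± 0.10, adjusted p = 4.43e-15), SRXN1 (-1.40 ± 0.19, adjusted p = 4.86e-07), PGD (-1.21 ± 0.08, adjusted p = 1.8e-12) and HMOX1 (-1.10 ± 0.09, adjusted p = 7.7e-11) fell. ME1 rose (1.05 ± 0.10, adjusted p = 2.08e-09), and NQO1 was at -0.20 ± 0.07 (adjusted p = 0.0239). The targets SLC7A11 (1.16), GCLC (0.89) and GCLM (0.28), counted in both this list and the glutathione list, also rose, GCLM with the limit given there. The calls of KEAP1 and NQO1 were lost under some other settings.

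**Figure D5:**
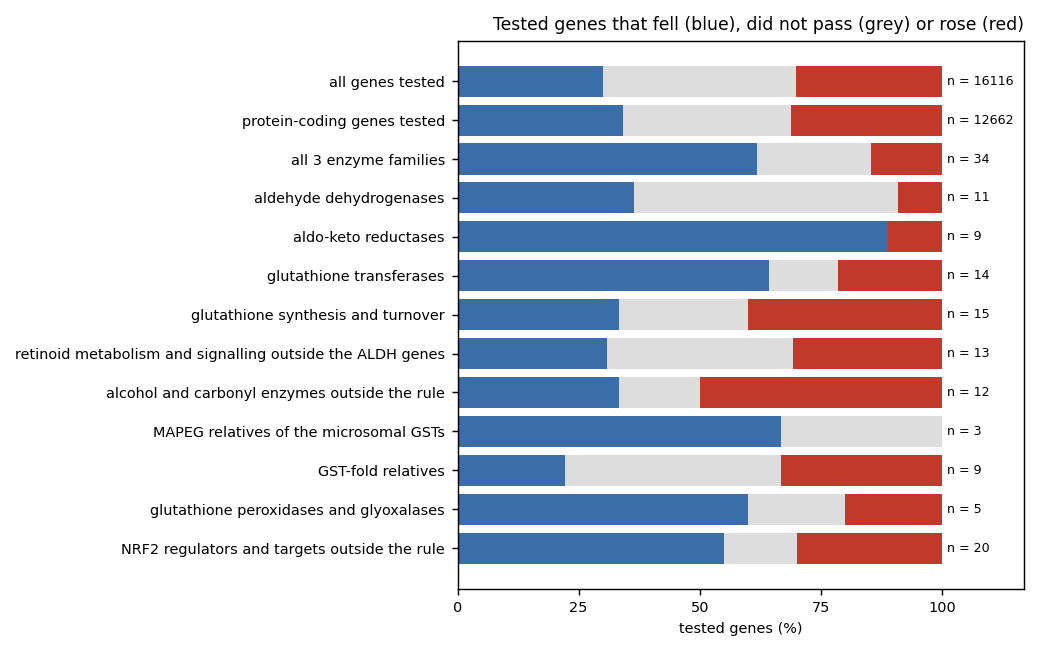
Percentage of tested genes (x axis) that fell (blue), did not pass (grey) or rose (red) at an edgeR adjusted p below 0.05, for all genes, the 3 families and 7 lists of related genes (n = tested genes). Of the aldo-keto reductases 8 of 9 fell, beside 30.1% of all genes tested, but AKR1B10, AKR1C1, AKR1C2 and AKR1C3 lost their call under some other settings.

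In retinoid metabolism and signalling outside the aldehyde dehydrogenases, 4 of 13 tested genes rose and 4 fell. STRA6, the retinol importer, was at 33.0 ± 4.39 and 7.48 ± 1.85 CPM (-2.14 ± 0.14, adjusted p = 1.66e-11). CRABP2, which carries retinoic acid to its nuclear receptors (-1.65 ± 0.19, adjusted p = 4.25e-08), and the retinol dehydrogenase RDH5 (-1.10 ± 0.24, adjusted p = 0.000301) also fell. Those that rose, named after their values were seen, were the retinoid receptor genes RARG (0.86), RXRB (0.77) and RARA (0.60) and the retinal reductase RDH11 (0.75). Of 12 other alcohol and carbonyl enzymes 6 rose and 4 fell. CYP2E1, which oxidises ethanol, was at 4.26 ± 1.03 and 0.406 ± 0.114 CPM (-3.36 ± 0.33, adjusted p = 2.51e-09), and the carbonyl reductase CBR3 fell (-1.06 ± 0.25, adjusted p = 0.000644). ALDH2, the main mitochondrial acetaldehyde dehydrogenase, whose symbol lies outside the pattern used, was at 63.7 ± 5.67 and 73.3 ± 4.74 CPM (0.20 ± 0.09, adjusted p = 0.0466), a call that was lost under some other settings.

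Of 9 tested relatives that share the glutathione transferase fold, 3 rose and 2 fell, among them the intracellular chloride channel proteins CLIC4 (1.06 ± 0.08, adjusted p = 3.59e-11) and CLIC3 (-1.88 ± 0.17, adjusted p = 5.4e-10). Of 5 glutathione peroxidases and glyoxalases 1 rose and 3 fell, with GPX3, the secreted peroxidase, at 1.49 ± 0.236 and 0.540 ± 0.282 CPM (-1.45 ± 0.41, adjusted p = 0.00334).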

How the data were processed

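The authors sequenced poly(A)-selected RNA of MG63 cells, 3 siFUBP1 and 3 siMock samples, from libraries made with a NEBNext Ultra RNA kit that does not mark strand. Reads in bases shared by genes on opposite strands therefore cannot be assigned by strand. For genes that overlap on the same strand, such as GSTM1 and GSTM2, strand would not separate shared bases either. The authors deposited 1 table of 58735 genes. Its read counts per gene are unnormalized, and the authors' FPKM values were made from the counts and the gene length. The submitters' processing notes list HISAT2 2.0.5, StringTie 1.3.3b, featureCounts 1.5.0-p3 and DESeq2 1.16.1 without their roles, and the genome build is not given in the sources used here. Identifiers, starts, ends and lengths of all 58735 genes equal those of GENCODE 29 on GRCh38. The signal columns (group means), log2 fold changes and p-values deposited by the authors hold their own comparison and were not used.

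Samples were grouped by their titles. The 2 groups were tested on the counts in R 4.3.3 with edgeR 4.0.16 (TMM scaling, filterByExpr with the group, robust quasi-likelihood F test), and p-values were adjusted by Benjamini-Hochberg over 16116 genes. A gene passed, and is said to have risen or fallen, at an adjusted p below 0.05. SE is the absolute log2 fold change over the square root of F. TMM factors were 0.959 to 1.05. Every pair of samples differed by more than sampling noise (chi-square per gene of at least 5.84). On simulated data for this comparison (15816 genes) the fit recovered 98% of genes changed by 1 on the log2 scale and 100% of those changed by 2, with 23 false passes. These data held no trend with GC content. With such a trend added (15868 genes), the same fit gave 1918 false passes, and 15 once the trend was removed. The added trend was of a set size, not one measured in the real samples.

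The members and lists were chosen with earlier results of these data known. The text names every member, FUBP1, up to 4 genes in each direction from each list with an absolute log2 fold change above 1, and the fixed genes PTGES, LTC4S, NFE2L2, KEAP1, NQO1, GCLC, GCLM, SLC7A11 and ALDH2, and ALOX5AP was added after its value was seen. Alternatives were RLE and upper-quartile scaling, no filter and a stricter filter on low counts (at least 10 reads and 1 CPM in 3 samples), DESeq2 1.42.0, limma 3.58.1 on log2(FPKM + 1) and log2(FPKM + 0.1), the replicate number as a block, removal of trends with GC content and length, and leaving out each sample in turn. Total counts without scaling and sums over near-identical genes were added after seeing the data. Symbols AKR1C8, GSTT1, GSTT2 and GPX1 had no protein-coding row of that name and were not used. The experiments other than RNA-seq were not analysed here.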

Additional observations from a re-analysis of the deposited data

How the results depend on the processing

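Of the 26 members that passed, 18 (3 higher, 15 lower) kept their direction and their side of the threshold in every setting that tested them. Across settings 4 to 6 members were higher and 17 to 22 lower. The number past an absolute log2 fold change of 1 upwards was 0 by limma on either FPKM scale and 0 to 1 with a sample left out (0 without siMock replicate 1), and downwards it was 1 by limma on log2(FPKM + 1) and 5 to 6 with a sample left out. For the MAPEG relatives 1 gene (ALOX5AP), not 0, was higher with upper-quartile scaling, the stricter filter, both limma fits, the replicate block and total counts, and 0 to 1 with a sample left out (1 without siMock replicate 3). Of the NRF2 list 7 genes, not 11, were lower with total counts, and 7 to 11 with a sample left out (7 without siMock replicate 2). The direction turned for members that did not pass: with GC and length trends removed, ALDH1B1 was at -0.0302, ALDH6A1 at -0.0431 and ALDH7A1 at 0.0704, and with total counts ALDH7A1 was at 0.0267 and MGST1 at 0.00589. With 1 sample left out ALDH1B1 ranged from -0.0200 to 0.0833. The cause was not tested.

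Deviations of same-numbered samples correlated at 0.000204, 0.033 and 0.181 over 16116 genes. Differently numbered samples were not compared in this way, so these values do not settle whether the replicate numbers pair the samples. With the replicate block 5 members were higher and 21 lower, as without it.

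AKR1B10 passed in 5 of 16 alternatives, AKR1C3 in 7, GSTA4 in 12, ALDH2 and NQO1 in 9 and KEAP1 in 8. Members that passed only under an alternative were ALDH3B1, ALDH9A1 and MGST1 with the trends removed, and ALDH3B1 also with total counts. GSTM1 on its own counts passed in no setting, and only its sum with GSTM2 and GSTM4 passed. Of members below the filter in the main comparison, AKR1B15 passed in 6 of 6 settings that tested it and ALDH1A2 in 1 of 6. Without scaling the median log2 fold change of all genes was 0.0986, beside 0.00197. Limits: 3 samples a group in 1 line, 1 siRNA condition, a kit that does not mark strand, and genes of similar sequence.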

Other observations

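Members that are neighbours in the genome were compared in direction as a description. AKR1C1, AKR1C2, AKR1C3 and AKR1C4 on chromosome 10 had log2 fold changes from -3.03 to -0.21, of which those of AKR1C1, AKR1C2 and AKR1C3 lost their call under some alternatives, while AKR1E2, 115190 bases before AKR1C1, had 0 reads in every sample. GSTO1 and GSTO2 both rose, and AKR7A3 and AKR7A2 both fell. MGST3 and ALDH9A1 lie 419 bases apart on opposite strands, and MGST3 fell (log2 fold change -0.31) where ALDH9A1 did not pass (-0.12). ALDH3A2 and ALDH3A1 moved in opposite directions, with 1 protein-coding gene between them. Of the alpha-class cluster on chromosome 6, GSTA1, GSTA2, GSTA3 and GSTA5 had 0 reads and GSTA4, 68262 bases from GSTA3, had 36 to 69 reads per sample. Differences between neighbours were not tested.

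The 2 steps of succinic semialdehyde disposal that the families cover, the oxidation by ALDH5A1 and the reduction by AKR7A2, both fell (log2 fold changes -0.61 and -0.76). This pairing was chosen after the values were seen.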
